A study of Mus musculus with 2 samples.

Results

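Genomic-class models are long-read models that were assigned to an annotated gene but match none of its spliced transcripts, and nearly all of them have a single exon. They were chosen as the models of known genes that the authors' annotation program named genomic, with spike-in sequences left out, and they numbered 12418 of the 172639 models in the 2 deposited tables. Replicate 2 held 5701 of them with 25893 reads in 4729 genes, and replicate 1 held 6717 with 35509 reads in 5433 genes. Full-length cDNA had been read from gastrocnemius, a calf muscle rich in fast fibres, of B6CASTF1/J mice, all male and 18 to 20 months old. The series has 1 untreated group of 2 biological replicates, and each library used 2 µg of total RNA, to which SIRV and ERCC (Ambion mix 1) spike-in RNAs were added. Replicate 2 had 1173233 reads and replicate 1 had 1509380. Differences between the libraries are therefore differences between these 2 samples, and whether a library stands for 1 mouse or for pooled animals is not given in the sources used here.

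Transcripts are cut and given a poly(A) tail at the 3′ end, usually a short way after the hexamer AATAAA or ATTAAA. Long-read protocols prime cDNA from that tail, so a read normally starts there and runs back through the splice junctions. A run of A inside an RNA can also serve as a priming site. The deposited tables hold counts per model and not reads, so what gave rise to a single read was not tested.

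The ends of some models are shown first, because the sequence there was not used to define the models. The models shown are examples, and the shares over all sites are given further below. The 3 sequences that follow are the last 30 bases of models placed inside exons and away from every annotated 3′ end. They are on the mm10 build, with the hexamer in capitals. The part of the transcript named with each sequence, here and below, holds most of the model's exon bases. It need not be the part where the model ends. Only models with a hexamer are shown, while some exon sites with more reads in both libraries had none in those bases.
Chchd4, 3′ UTR, chr6:91464276-91464305, minus strand: ctcaATTAAAaagaaaccatttctatctga
Coq3, 3′ UTR, chr4:21910726-21910755, plus strand: aagaacaaaaggtcAATAAAaatatctaaa
Bpgm, 3′ UTR, chr6:34505101-34505130, plus strand: aaAATAAAgctttgtgactgcatacaacac
The next 3 are the last 30 bases of models that end at an annotated 3′ end, in genes with many genomic reads (Apobec2 in replicate 2 only). Here too only models with a hexamer are shown, and the models of Pvalb and Cox6a2 had none in their last 30 bases.
Apobec2, 3′ UTR, chr17:48419231-48419260, minus strand: atagcaacatcAATAAAggaaataagtggt
Plec, 3′ UTR, chr15:76170974-76171003, minus strand: gcccctcAATAAAagcaattccaaccttca
Ybx3, 3′ UTR, chr6:131364855-131364884, minus strand: caaaAATAAAatttttaccttcaaaggaaa
The last 3 are the 20 bases that follow the end of exon models in genes where those bases are mostly A, with each A in capitals.
Foxn3, 3′ UTR, chr12:99194088-99194107, minus strand: AAAAAAAAAAAAAAAAAAAA
Zfp281, coding exon, chr1:136628253-136628272, plus strand: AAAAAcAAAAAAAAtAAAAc
Wdr89, 3′ UTR, chr12:75630910-75630929, minus strand: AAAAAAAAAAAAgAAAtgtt

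Genomic-class models took 2.30% of the reads of annotated genes in replicate 2 (95% Clopper-Pearson interval 2.28 to 2.33) and 2.47% in replicate 1 (2.45 to 2.50), a mean of 2.39% ± 0.119 (SD, n = 2). By reads they were the smallest of the 5 classes of models in annotated genes. Incomplete splice matches, which carry part of a known intron chain, took 9.89% ± 0.474, and reads of known transcripts took 62.5% ± 2.41 (SD, n = 2 each). Single-exon models carried 98.1% of these reads in replicate 2 and 98.8% in replicate 1. Genes coding for proteins held 93.2% and 94.9% of them in replicates 2 and 1. No spike-in read was in this class, with 0 of 6922 in replicate 2 and 0 of 40948 in replicate 1, which allows shares of up to 0.0433% and 0.00733%. The 15 mitochondrially encoded genes of the list also had none, among 3353 and 3210 reads in replicates 2 and 1.

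Most models were thin and a few genes were deep. A single read was the only support of 55.2% of models in replicate 2 and of 51.4% in replicate 1. The 20 genes with the most genomic reads nonetheless held 20.2% and 18.5% of the genomic reads of replicates 2 and 1. One model per gene was the rule, in 4003 of 4729 genes in replicate 2 and 4457 of 5433 in replicate 1. The read-weighted median length of a model was 1703 bases in replicate 2 and 1053 in replicate 1. A model's coordinates do not always describe its reads. Pvalb had 1 model of 4 bases with 338 reads in replicate 2 and 315 in replicate 1, and models under 20 bases held 8.53% and 8.67% of the genomic reads of replicates 2 and 1. Placement below is that of the model, and the span of each read was not analysed here.

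Genomic reads were mainly in models placed at annotated 3′ ends. A model was placed there if its 3′ end was within 100 bases of the 3′ end of any annotated transcript of its gene, and this took 65.6% of genomic reads in replicate 2 and 69.8% in replicate 1, a mean of 67.7% ± 2.97 (SD, n = 2). For 63.9% and 66.9% of the reads of replicates 2 and 1 the model ended at an annotated 3′ end to the base. Of single-read models, 46.7% and 47.3% did so, and 47.5% and 48.0% were placed at the 3′ end at all. Whether a model's 3′ end is where its reads ended was not tested, so these shares describe models and not read ends. Of the reads at 3′ ends, 89.98% in replicate 2 and 88.9% in replicate 1 were in models lying at least 90% in exons, and most of them, 88.6% and 85.4%, were in models mainly in 3′ UTR. The exon and intron class took models with at least 10% and under 90% of their bases in exons, the others in introns or past the gene's end. The Ckm model of replicate 1, with 630 reads, was in this class and ended 1199 bases past the gene. Introns held 10.4% ± 0.799, exons away from an annotated end 8.04% ± 0.148 and the exon and intron class 7.04% ± 1.94 (SD, n = 2 each). Models with over 50% of their bases beyond the gene held 6.82% ± 0.386 (SD, n = 2). Where a model beyond the gene had to have no base inside it, a rule chosen after seeing the data, that share was 0.239%, and with the most distal annotated end alone the exon share was 16.8%. Counted by models and not by reads, introns held 21.2% of all models in replicate 2 and 19.4% in replicate 1. Of single-read models they held 29.1% and 27.6%.

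**Figure D1:**
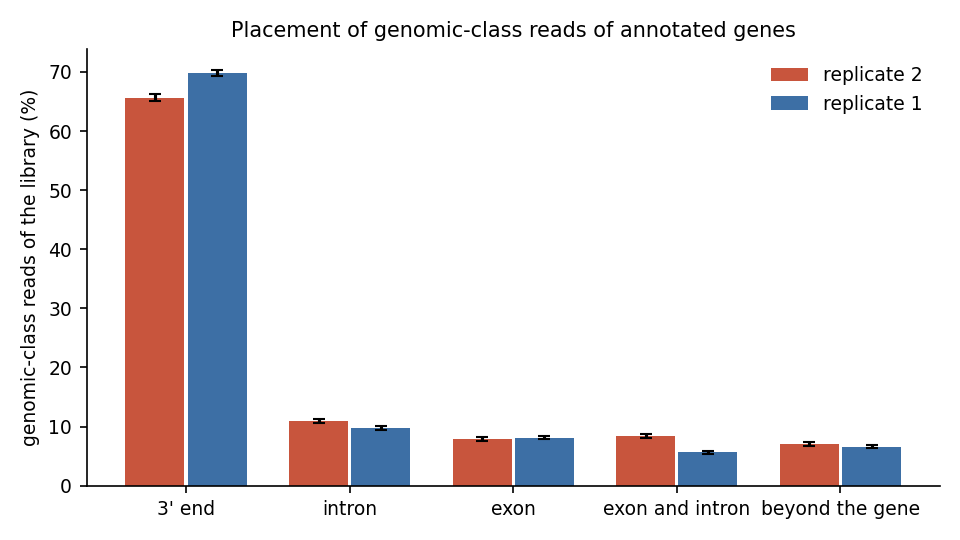
Share of genomic-class reads (vertical axis, percent of the library's genomic reads) by where the model lies in its gene, for replicate 2 (left bars) and replicate 1 (right bars). Error bars are 95% Clopper-Pearson intervals of the reads. The 3′ end class holds 65.6% and 69.8% in replicates 2 and 1, and the intron class, the next in replicate 2, holds 10.9% and 9.80%. The exon and intron class also holds models partly in exons that run past the gene's end.

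Genes with long last exons had higher genomic shares. Among genes with introns that reached 20 reads in both libraries, those with a last exon of up to 500 bases had 0.586% of their pooled reads in genomic models in replicate 2 and 0.814% in replicate 1. Those with a last exon over 4000 bases had 10.3% and 11.6% in replicates 2 and 1, with the bins between in order in both libraries. Across the 4532 genes with a value, Spearman's rho between last-exon length and the share of reads in 3′ end models was 0.28 in replicate 2 and 0.29 in replicate 1. This is a description across genes, which share their libraries and are not independent replicates.

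**Figure D2:**
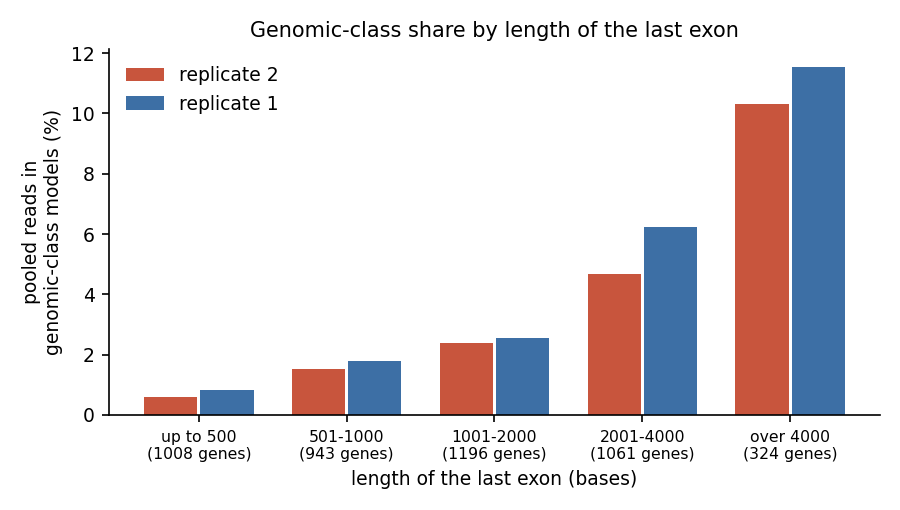
Percent of pooled reads in genomic-class models (vertical axis) for genes binned by the length of the last exon in bases (horizontal axis, with the number of genes), for replicate 2 (left bars) and replicate 1 (right bars). The bars run upward with length in both libraries, to 10.3% and 11.6% in the last bin.

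Apobec2, a muscle member of the cytidine deaminase family (chromosome 17), had 512 genomic reads of 689 in replicate 2 and 622 of 919 in replicate 1, or 74.3% and 67.7% of the gene's reads. Its reads were assigned to a model of 1 base at the annotated end in replicate 2, and to a model of 11876 bases that ran 7601 bases past that end in replicate 1, so 1 gene with like counts fell into 2 placement classes. Plec, the large cytolinker that ties intermediate filaments to the sarcomere and membrane, had 404 of 575 reads in replicate 2 and 229 of 292 in replicate 1. Its last exon is 7412 bases long, and 2 and 1 reads in replicates 2 and 1 matched a known Plec transcript. Gabarapl1, an autophagy gene of the ATG8 family, had 268 of 303 and 143 of 168 reads in replicates 2 and 1. Esrra, a nuclear receptor that regulates mitochondrial genes, had 206 of 255 and 225 of 278. In Plec, Gabarapl1 and Esrra the share was between 70.3% and 88.4% in both libraries, and the genomic models ended at the annotated 3′ end.

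Cox6a2, the heart and muscle form of a cytochrome c oxidase subunit, had 257 of 1083 reads genomic in replicate 2 and 356 of 1699 in replicate 1. The 2 libraries gave the same model of 309 bases, which ends 69 bases upstream of the annotated end. Ndrg2 had 225 and 220 genomic reads in replicates 2 and 1 in a model of 13 bases. Mb, the oxygen-binding protein myoglobin, had 220 genomic reads of 588 in replicate 2 and 122 of 305 in replicate 1. Tsc1, an inhibitor of the growth kinase complex mTORC1, had the highest mean share among genes that reached 100 reads in both libraries, 95.1% in replicate 2 and 97.3% in replicate 1. Eif4ebp2, a repressor of cap-dependent translation, had 82.2% and 84.8%. Their last exons are 4514 bases in Tsc1 and 5338 bases in Eif4ebp2. Of 4657 genes that reached 20 reads in both libraries, 61 were at least 50% genomic in both, 334 were at least 10% genomic in both, and 1613 had no genomic read in either.

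**Figure D3:**
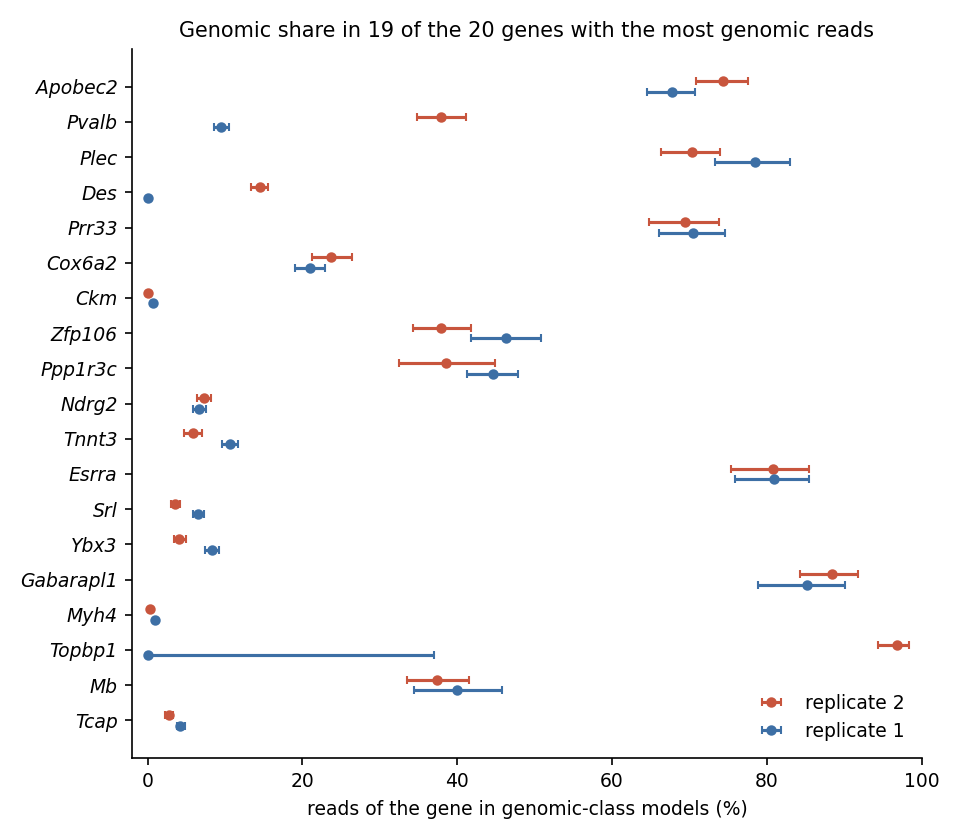
Percent of each gene's reads in genomic-class models (horizontal axis) for 19 of the 20 genes with the most genomic reads, with replicate 2 drawn above replicate 1 for each gene. Bars are 95% Clopper-Pearson intervals. Esrra, Gabarapl1, Prr33 and Mb have overlapping intervals in the 2 libraries, and Pvalb, Des and Topbp1 do not.

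A few genomic models ran across a whole gene without a splice. Allowing 25 bases at each end, a limit set after seeing the data, such models held 441 reads in replicate 2 and 473 in replicate 1, or 1.70% and 1.33% of the genomic reads, in 35 genes of which 10 were seen in both libraries. Tcap, the titin cap of the Z-disc, had 116 and 250 reads in replicates 2 and 1 in a model of 1143 bases. Myadml2 had 129 and 134 in a model of 2128 bases, against 4 known-transcript reads in each library. Tnni2, fast troponin I, had 100 such reads in replicate 2 and 0 in replicate 1, where its 253 genomic reads were in other models that end at an annotated 3′ end.

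Many intron reads were in models over an exon of another annotated gene. In Prr33, annotated here as a lincRNA, 252 and 252 intron reads in replicates 2 and 1 lay opposite Tnnt3, fast troponin T. Over all intron reads, 18.1% in replicate 2 and 22.5% in replicate 1 were in models over an exon of another gene on the same strand, and a further 29.8% and 22.0% over one on the opposite strand only. The rest, 52.1% and 55.5%, touched no exon of another gene. Whether the counting used strand is not given in the sources used here, so sense and antisense reads stay uncertain. Of 2183 intron sites, 14.4% were read in both libraries, against 33.6% of 5296 3′ end sites and 14.7% of 1183 exon sites. The share was 12.5% of 736 sites of the exon and intron class and 11.6% of 499 sites beyond the gene. The intron sites read in both held 54.2% of intron reads in replicate 2 and 54.0% in replicate 1, and the 3′ end sites read in both held 73.0% and 70.8% of theirs. No test was made of these differences.

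Models beyond the gene mostly went downstream. Of their reads, 92.9% in replicate 2 and 96.2% in replicate 1 were in models that end past the gene's last base, at a median of 2505.5 and 2132 bases. Topbp1, a DNA damage checkpoint protein, had 358 reads in replicate 2 and 0 in replicate 1 in a model that starts at the last base of the gene and runs 4885 bases over Cdv3 on the opposite strand. Zfp106, an RNA-binding zinc finger protein, had 256 reads in replicate 2 in a model that ends 831 bases past the gene, while 226 reads in replicate 1 were in a model that ends at the gene's end. The gene's genomic share was 37.96% in replicate 2 and 46.2% in replicate 1 (Fisher's exact test, adjusted p = 0.0868).

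Exon models away from an annotated end carried the hexamer far more often than exon sequence as a whole. These models ended at 1183 sites, and the annotated transcripts gave the 50 bases before the end for 1162 of them. AATAAA or ATTAAA, read on the transcript's strand, was present at 610, or 52.5% (95% interval 49.6 to 55.4). It was present in 5.07% of all 50-base windows in exons of the same genes. For models mainly in 3′ UTRs it was present at 55.7% of 959 sites, with a median of 17 bases between hexamer and end (quartiles 13 and 21). Windows lying in 3′ UTRs had it in 6.37%. Sites were grouped by the part of the transcript with most of the model's exon bases, so an end may lie in another part. Of the 959 sites, the 145 read in both libraries had the hexamer in 71.03%. The 814 read in 1 library had it in 52.9%, a difference that was not tested. At sites within 100 bases of an annotated end, chosen by the annotation, it was present in 83.2% of 5272. A match is a description of the letters and not of a used site. For these sequences no genome was used, so intron sites could not be described: 5.41% of them had the bases that follow the end.

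Runs of A followed some of the exon models. At least 12 A in the 20 bases after the end stood at 131 of 1150 exon sites, or 11.4% (9.61 to 13.4), against 1.39% of 20-base windows in the same exons. With at least 16 A it was 6.35% against 0.127%. Foxn3, a forkhead factor, had 3 reads in replicate 2 and 15 in replicate 1 at such a site, and Zfp281, a zinc finger factor, had 7 and 7. Of the 959 sites of models mainly in 3′ UTRs, 10.9% had at least 12 A, 21 had both features and 341 had neither. For models mainly in 5′ UTRs, at least 12 A stood at 5 of 17 sites and the hexamer at 2 of 27. Whether reads at A-rich sites began at those bases was not tested.

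**Figure D4:**
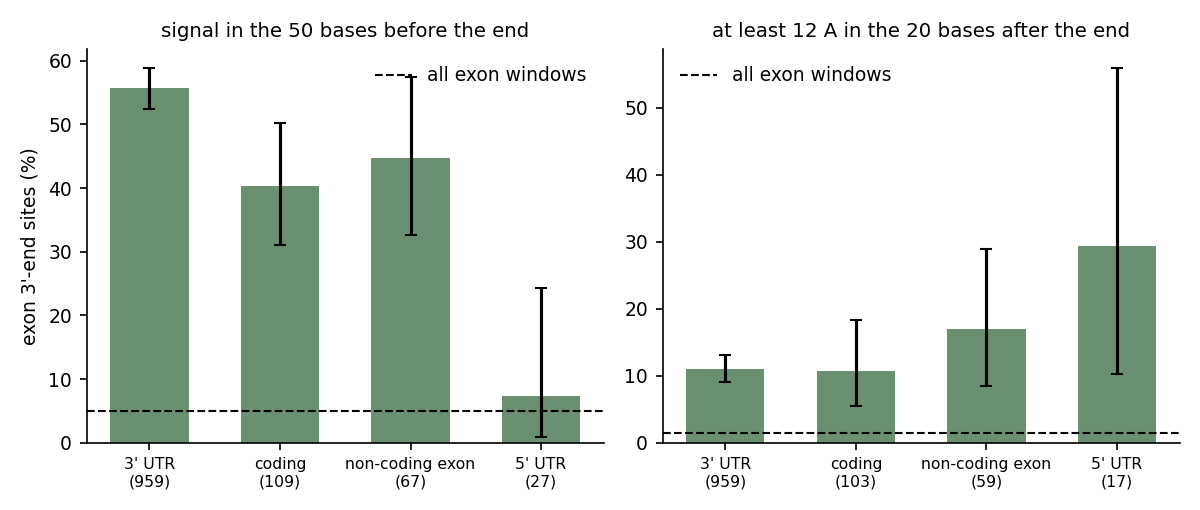
Percent of exon 3′-end sites (vertical axes) with a hexamer in the 50 bases before the end (left panel) and with at least 12 A in the 20 bases after it (right panel). Sites are grouped by the part of the transcript that holds most of the model's exon bases (number of sites below). Error bars are 95% Clopper-Pearson intervals, and the dashed line is the percent of all exon windows, 5.07% and 1.39%. For models mainly in 3′ UTRs, 55.7% of sites had the hexamer.

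The genomic share of a gene's reads was compared between the libraries. Of 4657 genes tested, 69 (1.48%) differed by at least 20 points at an adjusted p below 0.05 (Fisher's exact test, Benjamini-Hochberg over all genes tested), 24 higher in replicate 2 (0.515%) and 45 lower (0.966%). At any size of difference, 216 genes had an adjusted p below 0.05. Slc25a5, an ADP/ATP carrier of mitochondria, had 125 of 198 reads genomic in replicate 2 and 0 of 222 in replicate 1 (adjusted p = 5.7e-52). Xirp2, an actin-binding protein of the sarcomere, had 189 of 508 and 3 of 425 in replicates 2 and 1 (Fisher's exact test, adjusted p = 8.9e-51). Pvalb, the calcium buffer of fast fibres, had 352 of 929 and 319 of 3353 (Fisher's exact test, adjusted p = 6.34e-81). Pde4d, a cAMP phosphodiesterase, had 22 of 104 in replicate 2 and 111 of 131 in replicate 1, mostly in 1 intron (Fisher's exact test, adjusted p = 3.7e-21). Hif1an, an oxygen-dependent hydroxylase, had 0 of 266 and 60 of 214 (Fisher's exact test, adjusted p = 1.57e-21).

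Single-exon reads of 1 gene often carried different class names in the 2 libraries, genomic in one and incomplete splice match in the other. These are counts per gene, and the positions of the 2 kinds of read were not compared. In replicate 1, Slc25a5 had 141 single-exon incomplete reads, so that genomic and single-exon incomplete reads together were 63.1% of the gene's reads in replicate 2 and 63.5% in replicate 1. Des, the muscle intermediate filament desmin, had 572 genomic reads and 0 single-exon incomplete reads in replicate 2, and 0 and 325 in replicate 1. Ckm, muscle creatine kinase, had 0 genomic and 145 single-exon incomplete reads in replicate 2, and 631 and 0 in replicate 1. Of 1111 genes with at least 10 genomic reads over both libraries, 130 had them in 1 library only, and 96 of these 130 had at least 5 single-exon incomplete reads in the other. With the 2 kinds of read added together, a setting chosen after seeing the data, 22 genes differed in share, and 16 of the 69 calls kept their direction and threshold. Pvalb, Pde4d, Scn4a, Zcchc24 and 2310002L09Rik were among those kept, and Slc25a5, Hif1an and Speg were not. Xirp2 turned round, since its 246 single-exon incomplete reads in replicate 1 brought the sum to 37.2% in replicate 2 and 58.6% in replicate 1.

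**Figure D5:**
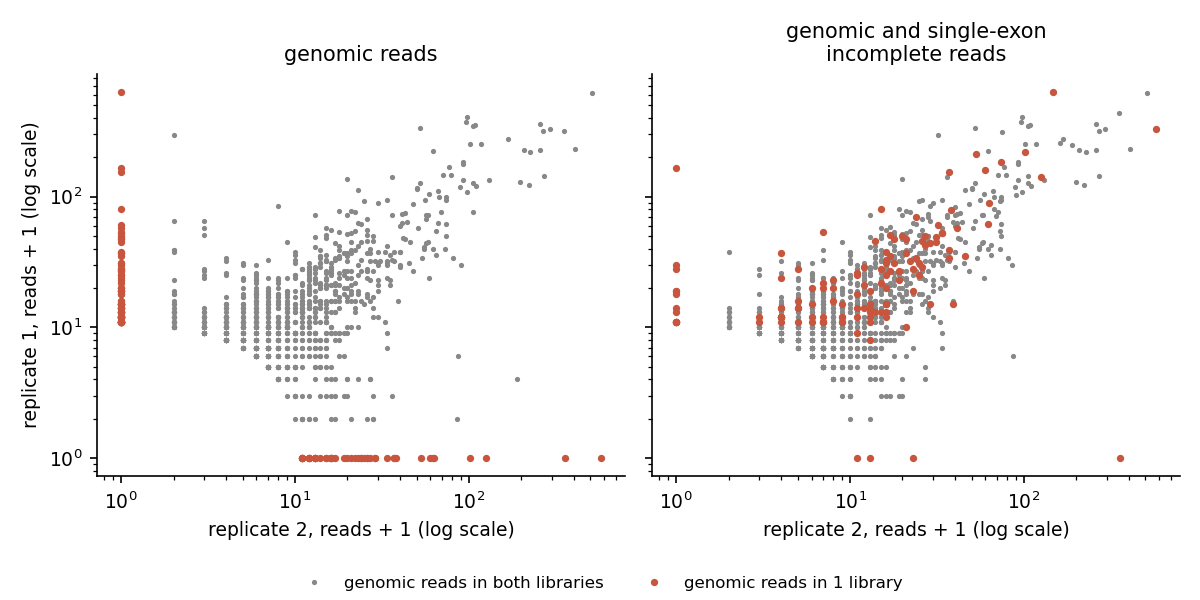
Reads plus 1 per gene in replicate 2 (horizontal axis, log scale) and replicate 1 (vertical axis, log scale) for the 1111 genes with at least 10 genomic reads over both libraries, with genomic reads alone (left panel) and with single-exon incomplete reads added (right panel). The 130 genes with genomic reads in 1 library, drawn as larger points, lie on the axes on the left, and 96 of them have at least 5 single-exon incomplete reads in the other library.

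The level of genomic reads was compared between the libraries over another set of genes and with another limit on size. Of 1111 genes tested, 279 (25.1%) differed at least 2-fold at an adjusted p below 0.05 (Fisher's exact test against all other reads of the library), 118 higher in replicate 2 (10.6%) and 161 lower (14.5%). With DESeq2 size factors, which move log2 ratios by about -0.26, 93 were higher and 207 lower. The median log2 ratio on the log2(CPM + 1) scale was -0.16 for genomic reads and 0.24 for all reads of the same genes. Des was at least 245-fold higher in replicate 2, against a floor of 3 reads in replicate 1, and Ckm at least 163-fold lower in replicate 2, against the same floor. With single-exon incomplete reads added, 161 genes of 1522 tested (10.6%) differed, 57 higher in replicate 2 (3.75%) and 104 lower (6.83%), and 111 of the 279 calls were kept, and Des had a log2 ratio of 1.18 and Ckm of -1.75. Topbp1 had no single-exon incomplete read in either library and kept its difference.

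Genes of known muscle functions split by list, with the lists chosen with earlier results of these data known. Of 14 genes of calcium handling, 11 were tested on level and 8 were lower in replicate 2, 0 higher. The median log2 ratio of the 11 was -1.42, against -0.16 over all genes tested, of which 14.5% were lower and 10.6% higher. All reads of that list were 219447 of the library's 1173233 in replicate 2 and 247281 of 1509380 in replicate 1. Atp2a1 alone held 205059 and 228292 of these in replicates 2 and 1 and was not among the lower genes. The list total therefore does not give the level of the lower genes. In all reads, the log2 ratio was -0.48 for Jsrp1 and 0.15 for Trdn. With single-exon incomplete reads added, 6 of 12 tested genes of that list were lower and 0 higher, at a median of -0.96. Jsrp1, a sarcoplasmic reticulum protein of excitation and contraction, had 1 genomic read in replicate 2 and 64 in replicate 1, and with those reads 28 and 64, which did not pass. Trdn, triadin, had 7 and 84 genomic reads in replicates 2 and 1, and with those reads 28 and 84, which passed. Of 8 tested genes of glycolysis and glycogen, 5 were lower and 0 higher, at a median of -1.37. All reads of that list were 38967 of the library's 1173233 in replicate 2 and 69569 of 1509380 in replicate 1. With single-exon incomplete reads added, 7 of 12 were lower and 0 higher. Aldoa, an aldolase, had 0 and 154 genomic reads and 36 and 0 single-exon incomplete reads in replicates 2 and 1. Of 9 tested giant and linker genes of the sarcomere, 4 were higher and 2 lower, at a median of 0.82, and with single-exon incomplete reads added 1 of 10 was higher and 0 lower, at a median of -0.07. The list had 14.3% of its reads genomic in replicate 2 and 9.53% in replicate 1, and the order turned with those reads added, to 15.1% in replicate 2 and 19.5% in replicate 1. Plec held most of the list's genomic reads in replicate 1, and without it the genomic share was 8.52% in replicate 2 and 4.95% in replicate 1. Ttn, titin, had 89 of 603 reads genomic in replicate 2 and 29 of 405 in replicate 1, and with single-exon incomplete reads 89 and 101. Of 9 tested fast contractile genes, 2 were higher and 5 lower, and with those reads 1 of 13 was higher and 8 lower. All reads of the fast contractile list were 163625 of the library's 1173233 in replicate 2 and 274444 of 1509380 in replicate 1. The 12 slow contractile genes had 37 genomic reads of 8420 in replicate 2 and 10 of 1010 in replicate 1, so all their reads differed between the libraries and not only the genomic ones.

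Genes known for intron-containing or nuclear RNA are set beside the genomic shares over all annotated genes, 2.30% in replicate 2 and 2.47% in replicate 1. The 18 genes known for detained introns had 16 genomic reads of 565 in replicate 2 and 12 of 664 in replicate 1, or 2.83% and 1.81%. The 10 genes known for intronic polyadenylation had 13 of 201 and 15 of 138, or 6.47% and 10.9%, and the 15 snoRNA host genes had 37 of 3158 and 58 of 4114, or 1.17% and 1.41%. The 12 nuclear long non-coding RNAs had 17 of 113 and 17 of 117, or 15.04% and 14.5% of their reads. Snhg14, the long host RNA of an imprinted snoRNA cluster, held 10 and 14 of these, and without it the list had 7 of 100 reads genomic in replicate 2 and 3 of 102 in replicate 1. Over both libraries, intron models held 1 genomic read of the detained-intron genes and 6 of the intronic polyadenylation genes. They held 0 of the snoRNA hosts and 7 of the nuclear long non-coding RNAs. Models at annotated 3′ ends held 19, 10, 92 and 3 in the same order. Of 5 tested nuclear genes of oxidative phosphorylation, 1 was lower in replicate 2 and 0 higher, against 14.5% lower and 10.6% higher over all genes tested. With single-exon incomplete reads added, 2 of 12 were lower and 0 higher, against 6.83% and 3.75% over all genes tested. The libraries read as skeletal muscle, with 49670 reads of skeletal actin, Acta1, in replicate 2 and 79379 in replicate 1, while no listed marker gene of fibroblasts, endothelium, immune cells, satellite cells or adipocytes had over 365 reads in a library. The fibroblast gene Dcn, decorin, had 295 and 365 reads in replicates 2 and 1, and the immune gene Cd74, the invariant chain, had 16 and 49, against 0 and 1 of Ptprc, the leukocyte phosphatase CD45. Markers of other cell types added few genomic reads: in the lists for fibroblasts, endothelium, immune cells, satellite cells and adipocytes no gene had over 4 genomic reads in a library.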

How the data were processed

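Counts are raw reads per transcript model as deposited by the authors, in 1 table for each of 2 libraries. Per the README files, the authors mapped to mm10 and used GENCODE M21. Model classes are those of TALON, as named in the source field of each deposited annotation. The aligner was not given in the sources used here, nor was the sequencing platform. Coordinates came from each library's annotation, whose 141862 annotated transcripts have the same exons in GENCODE M21. Sequences came from GENCODE M21 transcripts. Members and gene lists were chosen with earlier results of these data known. The limit for models beyond the gene (over 50% of bases outside its span) was set after seeing the data. Named genes are the 20 with the most genomic reads, the 10 highest shares, the called differences with at least 100 reads in each library (up to 10 in each direction), the 10 highest and lowest called log2 ratios, the most read sites of each class, and list members with at least 20 genomic reads; Chchd4, Coq3, Bpgm, Foxn3, Zfp281, Wdr89 and Tnni2 as a whole-gene model were chosen after their values were seen. Single-gene results of some genes that the rule names are not reported here, while counts and list values include them. Fisher's exact tests (two-sided, scipy 1.17.1) compared the libraries, with Benjamini-Hochberg adjustment over all genes tested, and were tested on simulated data, where the level test recovered changes less often in genes with few reads, and the limit for recovery was then set on the deeper genes alone. Scaling alternatives used edgeR 4.0.16 and DESeq2 1.42.0. Intervals and floors cover counting error only. The p-values set 1 library against 1 library, so they too cover counting error and hold no spread between replicates.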

Additional observations from a re-analysis of the deposited data

How the results depend on the processing

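No paired analysis was possible because the series has 1 group. Leaving out a replicate gave genomic shares of 2.30% to 2.47%, 3′ end shares of 65.6% to 69.8%, intron shares of 9.80% to 10.9% and lengths of 1053 to 1703 bases. The genomic share was 2.21% with models of at least 2 reads and 4.16% without the 25 genes with the most reads. The 3′ end share was 71.2% within 500 bases of an annotated end, 58.1% with the most distal annotated end alone, 61.9% with annotated transcripts that had reads, and 64.7% with models of at least 200 bases, the last chosen after seeing the data. The intron share was 8.15% with models of at least 2 reads, 6.97% at exon limits of 0% and 100%, 14.5% with 1 exon limit at 50%, 14.2% with annotated transcripts that had reads, 7.03% without genes that overlap another on the same strand, and 13.6% where a model beyond the gene had to have no base inside it, also chosen after seeing the data. The share beyond the gene was 0.239% under that last rule, and the exon share was 5.25% within 500 bases of an annotated end and 16.8% with the most distal annotated end alone. Reads at sites found in both libraries were 60.2% with ends within 10 bases and 62.7% within 100 bases, against 60.9%. A-rich exon sites were 6.35% at 16 A of 20. Genes that differed in share numbered 38 with 50 reads in each library, 110 at 10 points and 22 with single-exon incomplete reads added, a setting chosen after seeing the data, and genes that differed in level numbered 161 with those reads. With those reads added, the share difference turned round in Slc25a5 (-0.382 points), Xirp2 (-21.4 points), Ldb3 (-5.14 points), Tead1 (-2.33 points) and Fam131a (12.2 points). The log2 ratio turned round in Pbxip1 (-0.14), Xirp2 (-0.034), D17Wsu92e (0.035), Polr2l (-1.06) and Mylpf (-1.64). The cause of these changes was not tested, nor was whether like reads were given different class names in the 2 libraries. Depth limits the thin genes: 46.1% of genes with genomic reads in replicate 2 and 41.9% in replicate 1 had 1 such read.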
